A study of Mus musculus with 8 samples.

Results

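The MYC, MAX and MXD network was followed in *iMLL-AF9* cells, mouse leukemic cells in which a doxycycline-inducible *MLL-AF9* allele drives transformation. It was represented by the rows of the count files whose Ensembl identifier carries one of 10 gene symbols in GENCODE M21, and all 10 of these genes were found among the 54838 genes listed. Cells were treated with IOX5, an inhibitor of the HIF prolyl hydroxylases (PHDs), or with DMSO, the vehicle control, with 4 RNA-seq samples per group that carry the numbers 1 to 4. Both groups carry the inducible oncogene and have the genotype WT in their labels, and the methods give C57BL/6 as the background of all mice. The methods describe the animals of in vivo experiments as mixed-sex and give an age range for them. The sex and age of the animals behind these RNA samples are not given in the sources used here. Their dose and exposure time and what the numbers stand for are not given either. The labels describe leukemic stem cells of the bone marrow, the methods leukemic cells, and the description of the series preleukemic cells. Because nothing states that the samples came from separate cultures or animals, the p-values measure the spread between these samples, which may be technical. Expression is given as CPM, the reads of a gene scaled to library size with TMM factors, and differences as log2FC, the log2 fold change of IOX5 over DMSO. A gene was called when its Benjamini-Hochberg adjusted p over the 12405 genes tested was under 0.05 by edgeR's quasi-likelihood test. All 10 network genes passed the filter on low counts.

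MYC and its paralog MYCN are transcription factors that bind E-box sequences only as a pair with MAX, and then recruit acetyltransferases to genes of growth and division. MAX also pairs with the MXD proteins (MXD1, MXI1, MXD3 and MXD4), with MNT and with MGA, and these pairs occupy the same E-boxes but bring in the SIN3 corepressor or, for MGA, a variant Polycomb complex. MLX is a MAX-like partner that joins MNT, some MXD proteins and the glucose-sensing factor MondoA. In myeloid cells MXD proteins are known to accumulate during differentiation as MYC falls, and *Mxi1* is a known HIF target gene through which HIF-1 opposes MYC.

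RefSeq promoters of GRCm38.p6 were matched by symbol for 9 of the 10 genes, with *Myc* unmatched. The 250 bases before each annotated start were searched on both strands for the E-box CACGTG that MYC and MXD pairs bind, and for the HIF core in its forms ACGTG and, searched separately, GCGTG. Every such E-box also contains the first form of the HIF core. The E-box was present in 6.02%, the first HIF core in 16.6% and the other in 28.1% of 32817 promoter windows of the same length. Among the network genes, the E-box was found before the starts of *Mxd4*, *Mnt* and *Mlx*, beginning 219, 123 and 40 bases upstream. The first HIF core was found outside an E-box before *Mga* and before 2 of the 3 starts of *Mxi1*, and the other form before *Mga*, *Mxd1* and *Mnt*. For *Mxi1*, the window before the start at 53329695 begins at 53329445, downstream of the start at 53329413. The match in that window therefore lies within the gene as counted from the earlier start. None of these letters was found before *Mxd3*, *Max* or *Mycn*. The windows of *Mxd4*, *Mxi1* and *Mnt*, the genes with such a match that were called in the blocked or unblocked fit, are shown 5′ to 3′ on the strand of the gene, with the E-box or the first HIF core in capitals. A match is a description of the letters and not a site of binding.
Mxd4 (chr5:34187711-34187960, minus strand): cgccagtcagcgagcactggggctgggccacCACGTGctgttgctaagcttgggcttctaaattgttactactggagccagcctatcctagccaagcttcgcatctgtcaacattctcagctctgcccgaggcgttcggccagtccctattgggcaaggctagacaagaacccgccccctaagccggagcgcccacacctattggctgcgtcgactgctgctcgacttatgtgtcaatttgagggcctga
Mxi1 (chr19:53329163-53329412, plus strand): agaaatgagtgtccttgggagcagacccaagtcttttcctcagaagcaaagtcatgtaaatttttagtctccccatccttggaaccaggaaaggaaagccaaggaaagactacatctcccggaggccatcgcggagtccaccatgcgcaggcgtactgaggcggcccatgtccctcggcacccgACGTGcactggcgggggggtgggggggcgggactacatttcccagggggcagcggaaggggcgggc
Mnt (chr11:74830674-74830923, plus strand): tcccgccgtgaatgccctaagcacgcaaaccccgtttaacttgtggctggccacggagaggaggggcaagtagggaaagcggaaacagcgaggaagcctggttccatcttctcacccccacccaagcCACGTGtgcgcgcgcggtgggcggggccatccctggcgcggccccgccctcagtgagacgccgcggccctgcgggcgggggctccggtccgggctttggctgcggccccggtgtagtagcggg

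Gene reads numbered 11351507 to 14116054 per sample. Samples with the same replicate number deviated together from their group means. Values from a fit with the number as a block, called blocked, are therefore given for network genes and gene lists where they change a call. Values from the fit without it are called unblocked. Numbers 3 and 4 were not clearly separate pairs. The deviations of DMSO sample 4 correlated at 0.685 with IOX5 sample 3 and at 0.636 with IOX5 sample 4. The DMSO samples numbered 3 and 4 were closer to each other than any other pair of DMSO samples, but differed by more than sampling noise. The IOX5 samples numbered 3 and 4 were likewise the closest pair of that group. Of the 11 leukemic myeloid markers, all 11 were tested and their summed level was 3041 to 5395 CPM with DMSO and 3568 to 6143 CPM with IOX5. Unblocked edgeR called 0 of them (0 at an unadjusted p under 0.05, and 0 by DESeq2 or limma's voom), and blocked edgeR called *Kit*, *Mpo*, *Elane*, *Itgam* and *Cebpa* higher, where 11.2% of all genes tested were called higher. The part of these markers in the results below was not tested. Of 10 lymphoid markers, *Cd4*, *Cd8a*, *Ms4a1* and *Ncr1* had 0 reads in all 8 samples. In these bulk samples, fewer cells of a type and less RNA per cell cannot be told apart.

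Of the 4 MXD repressor genes, 1 was called by unblocked edgeR. *Mxd4* rose by 0.69 log2FC, *Mxd3* stood at -0.58 and *Mxi1* at 0.42. For *Mxd3* and for *Mxi1*, edgeR's test was passed blocked and not unblocked. *Myc* stood at 0.18 and *Max* at 0.020 log2FC, and neither passed the test in either fit. Unblocked, 1 of the 10 genes was called higher (*Mxd4*) and 0 lower by edgeR, where 0.774% of all genes tested were called higher and 1.25% lower. At an unadjusted p under 0.05 the counts were 1 higher and 2 lower, where 1114 of the 12405 genes tested were higher and 1392 lower. These counts over all genes are also the background for the unadjusted counts of the gene lists. DESeq2 called *Mxd4* higher and *Mxd3* lower, where 4.67% of genes were higher and 5.75% lower. Limma's voom called the same 2 genes, where 3.43% were higher and 4.92% lower. Blocked, edgeR called 3 genes higher (*Mxd4*, *Mxi1* and *Mycn*) and 2 lower (*Mxd3* and *Mnt*), where 11.2% of all genes were called higher and 9.43% lower. The IOX5 and DMSO samples did not overlap for *Mxd4*, which was higher in every IOX5 sample, as were 5.98% of all genes tested. They did not overlap for *Mxd3* either, which was lower in every IOX5 sample, as were 8.3% of all genes. *Mxd4*, *Mxi1* and *Mycn* were higher with IOX5 within all 4 numbers, as were 21.3% of all genes, and *Mxd3* and *Mnt* lower, as were 19.8%.

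**Figure D1:**
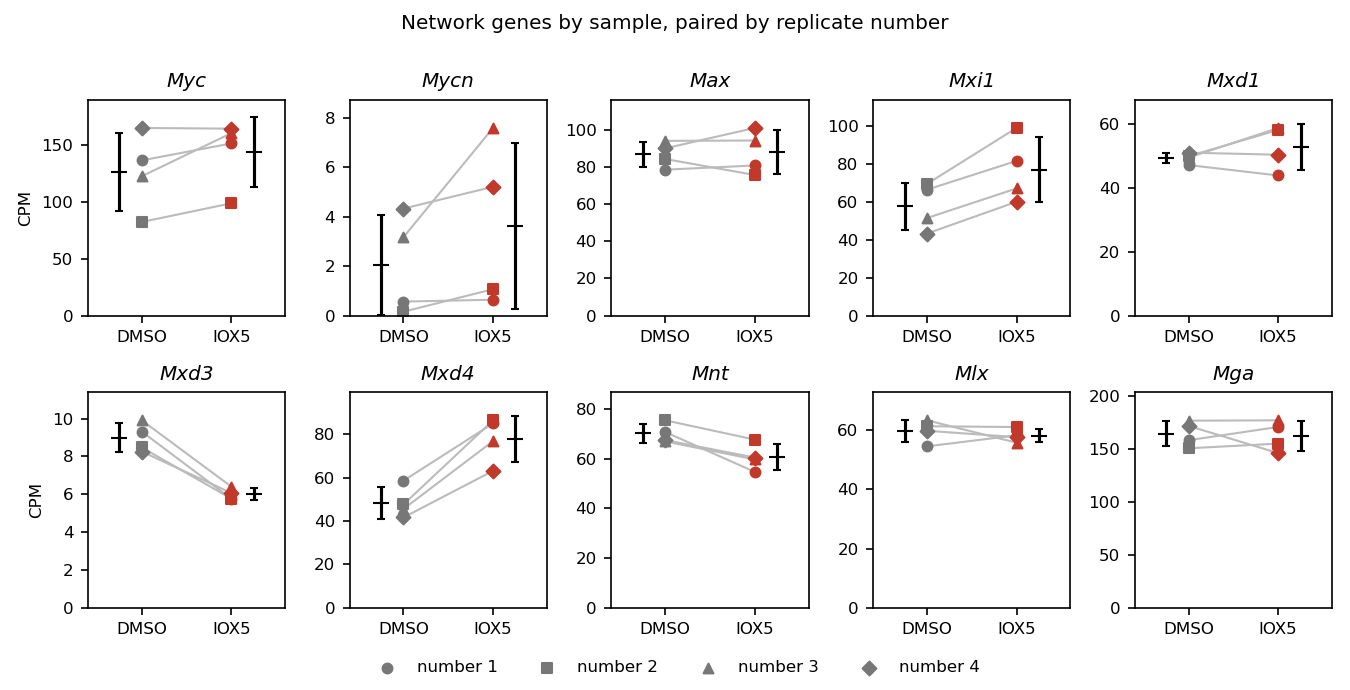
CPM of the 10 network genes in each sample, with DMSO in gray and IOX5 in red; symbols mark the replicate number, gray lines join samples that share a number, and black bars give the mean ± SD of 4 samples. *Mxd4* and *Mxd3* are the genes whose groups do not overlap, and the samples numbered 2 have the lowest *Myc* in both groups.

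*Myc*, the activator of the network (ENSMUSG00000022346, GRCm38 chromosome 15, 61985391 to 61990374, plus strand), had 137, 82.4, 123 and 165 CPM in DMSO samples 1 to 4 and 152, 98.8, 161 and 165 CPM in IOX5 samples 1 to 4. The groups overlapped, and the samples numbered 2 were the lowest of each group. The highest DMSO sample had 2.01 times the level of the lowest, a wider range than that of any other network gene in DMSO except *Mycn*. Its mean was 127 ± 34.4 CPM (SD, n = 4) with DMSO and 144 ± 30.5 CPM (SD, n = 4) with IOX5, and the 95% interval of its log2FC was -0.32 to 0.68. Within replicate numbers 1 to 4 the log2 differences were 0.15, 0.26, 0.39 and -0.006. EdgeR gave an adjusted p of 0.687 unblocked and 0.0683 blocked, and 0.0224 blocked when number 4 was left out.

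*Mycn*, the paralog best known from neural and embryonic tissue (ENSMUSG00000037169, GRCm38 chromosome 12, 12936093 to 12941914, minus strand), was near the limit of detection. It had 8, 2, 39 and 56 reads in DMSO samples 1 to 4 and 8, 12, 97 and 60 reads in IOX5 samples 1 to 4. Numbers 3 and 4 were high and numbers 1 and 2 low in both groups, so the number separated these samples more than the treatment did. Its level was 0.155 to 4.32 CPM with DMSO and 0.641 to 7.58 CPM with IOX5. The log2FC was 0.83 (SE 0.966), with an edgeR adjusted p of 0.676 unblocked and 0.0438 blocked. Blocked and with number 3 left out, the edgeR adjusted p was 0.352. Per kilobase, *Mycn* was between 0.00156 and 0.0389 of the *Myc* level in the same sample.

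*Max*, the obligate partner (ENSMUSG00000059436, GRCm38 chromosome 12, 76937269 to 76962201, minus strand), had 78.6, 84.4, 94.2 and 90.1 CPM with DMSO and 80.9, 75.8, 94.3 and 101 CPM with IOX5 in samples 1 to 4. The lowest and the highest of all 8 values were both IOX5 samples, so the IOX5 range enclosed the DMSO range. Its log2FC was 0.020 with a 95% interval of -0.21 to 0.25 (adjusted p = 0.935 by edgeR). *Mlx*, the MAX-like partner (ENSMUSG00000017801, GRCm38 chromosome 11, 101087277 to 101092207, plus strand), had 54.6, 61.4, 63.4 and 59.8 CPM with DMSO and 58.3, 61.1, 55.8 and 57.7 CPM with IOX5. Here the IOX5 samples lay inside the DMSO range, and the 95% interval of the log2FC was -0.18 to 0.11. *Mlx* shares 385 of its 1999 exon bases with *Psmc3ip* on the opposite strand (1710 reads in all samples against 5912 for *Mlx*), whereas *Gm10197* opposite *Mxi1* had 0 reads and *Gm42846* opposite *Mxd4* 1.

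*Mxd4*, which encodes a MAX-binding repressor and has the E-box shown above before its start (ENSMUSG00000037235, GRCm38 chromosome 5, 34173883 to 34187720, minus strand), had 58.5, 47.6, 45.5 and 41.6 CPM in DMSO samples 1 to 4 and 84.9, 86.3, 76.8 and 63.0 CPM in IOX5 samples 1 to 4. Every IOX5 sample was above every DMSO sample, and sample 1 was the highest of the DMSO group while sample 4 was the lowest of both. It rose from 48.3 ± 7.24 to 77.8 ± 10.7 CPM (SD, n = 4 each), or 0.69 log2FC (SE 0.13, adjusted p = 0.0409 by edgeR, unblocked). The differences within numbers 1 to 4 were 0.54, 0.86, 0.75 and 0.60 on the log2 CPM scale. The unblocked call was lost when any sample other than IOX5 replicate 4 was left out, with adjusted p-values by edgeR of 0.0542 to 0.132 and log2FC values of 0.63 to 0.79 over all 8 such fits. Blocked, edgeR's adjusted p was 9.88e-05, and 9.68e-07 to 0.00211 with each number left out in turn.

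*Mxd3*, an MXD member linked to proliferating cells (ENSMUSG00000021485, GRCm38 chromosome 13, 55325168 to 55329823, minus strand), had a difference of the opposite sign. It had 9.32, 8.48, 9.91 and 8.26 CPM with DMSO and 5.77, 5.77, 6.41 and 6.07 CPM with IOX5, from 65 to 132 reads per sample. Every IOX5 sample was below every DMSO sample, and the IOX5 samples lay close together. The means were 8.99 ± 0.764 and 6.0 ± 0.305 CPM (SD, n = 4 each), and the log2FC of -0.58 (SE 0.125) had an edgeR adjusted p of 0.0526 unblocked and 0.0065 blocked, and 0.00548 to 0.0495 blocked with each number left out. DESeq2 gave 0.0112 and limma's voom 0.0331. Of its 2369 exon bases, 105 are shared with *Prelid1* on the opposite strand, a gene with 34323 reads over the 8 samples against 759 for *Mxd3*. What part of the *Mxd3* count comes from this stretch was not tested.

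*Mxi1*, the HIF target among the MXD genes (ENSMUSG00000025025, GRCm38 chromosome 19, 53310518 to 53375810, plus strand), had 66.5, 69.5, 51.5 and 43.3 CPM with DMSO and 81.7, 99.1, 67.1 and 60.1 CPM with IOX5 in samples 1 to 4. Samples 1 and 2 were high and samples 3 and 4 low in both groups, so the groups overlapped. Within each number the IOX5 sample was the higher one, by 0.30, 0.51, 0.38 and 0.47 on the log2 CPM scale for numbers 1 to 4. The mean went from 57.7 ± 12.4 to 77.0 ± 17.3 CPM (SD, n = 4 each), or 0.42 log2FC (SE 0.19). EdgeR's adjusted p for it was 0.265 unblocked and 0.00117 blocked, and blocked it stayed between 6.76e-04 and 0.0127 with each number left out.

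*Mxd1*, the MXD gene classically tied to myeloid differentiation (ENSMUSG00000001156, GRCm38 chromosome 6, 86647042 to 86669161, minus strand), had 47.2, 49.9, 49.5 and 51.0 CPM with DMSO and 43.9, 58.2, 58.8 and 50.4 CPM with IOX5. The DMSO samples lay within a narrow band, and the IOX5 samples spread to both sides of it. Numbers 2 and 3 were higher and numbers 1 and 4 lower with IOX5. The 95% interval of its log2FC was -0.12 to 0.31 (edgeR adjusted p = 0.622).

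*Mnt*, which encodes a MAX-binding repressor present in both resting and dividing cells (ENSMUSG00000000282, GRCm38 chromosome 11, 74830920 to 74845725, plus strand), had 70.7, 75.4, 66.9 and 67.5 CPM with DMSO and 54.7, 67.7, 59.7 and 60.4 CPM with IOX5. The groups overlapped because IOX5 sample 2 was above DMSO samples 3 and 4. *Mnt* was lower with IOX5 in all 4 numbers, with differences of -0.37, -0.16, -0.16 and -0.16 on the log2 CPM scale. Its log2FC of -0.21 (SE 0.0766) had an edgeR adjusted p of 0.172 unblocked and 0.041 blocked. In blocked edgeR fits, leaving out number 1, 3 or 4 gave 0.203, 0.131 and 0.0538. *Mga*, which encodes a very large protein that silences germline genes (ENSMUSG00000033943, GRCm38 chromosome 2, 119897228 to 119969581, plus strand), had 159, 151, 177 and 172 CPM with DMSO and 171, 155, 177 and 146 CPM with IOX5. The IOX5 values covered the whole DMSO range, and the 95% interval of the log2FC was -0.20 to 0.17.

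**Figure D2:**
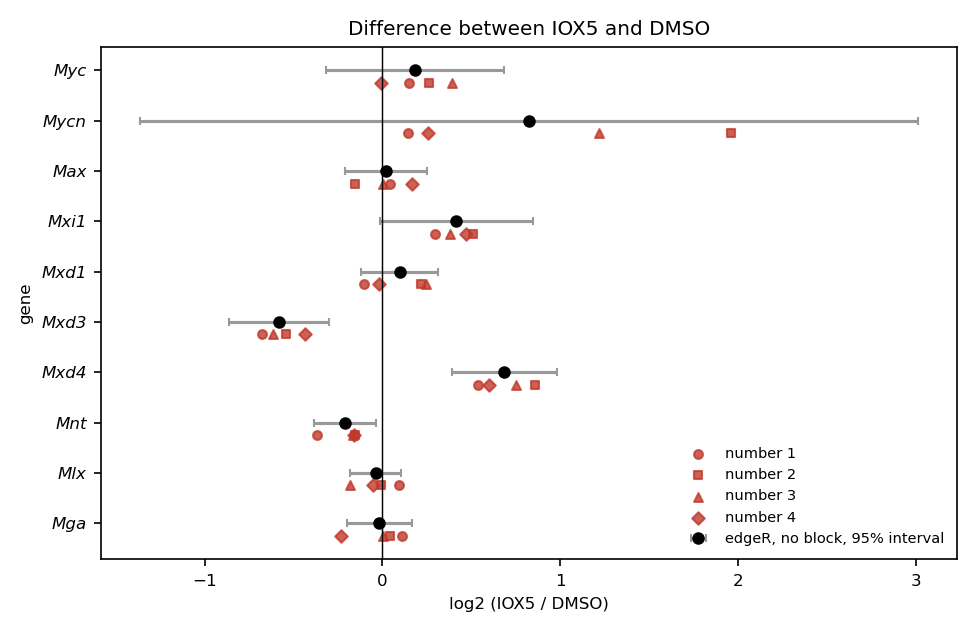
Log2 difference between IOX5 and DMSO for each network gene: black points with gray bars are the edgeR log2FC without a block and its 95% interval over 8 samples, and red symbols the log2 CPM difference within each replicate number. For *Mxd4*, *Mxi1* and *Mycn* all 4 numbers lie above 0, and for *Mxd3* and *Mnt* all 4 lie below it.

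Levels were compared between genes as CPM per kilobase of exon, over the union of annotated exons, which understates genes with many rarely used exons. In DMSO the order was *Myc* (46.6 ± 12.7), *Mlx* (29.9 ± 1.89), *Max* (24.1 ± 1.88), *Mnt* (15.2 ± 0.843), *Mga* (10.7 ± 0.783), *Mxi1* (8.46 ± 1.82), *Mxd1* (6.99 ± 0.231), *Mxd4* (5.69 ± 0.854), *Mxd3* (3.8 ± 0.322) and *Mycn* (0.623 ± 0.612; CPM per kilobase, SD, n = 4). The ranges of neighbors overlapped for *Myc* and *Mlx*, for *Mga* and *Mxi1*, for *Mxi1* and *Mxd1*, and for *Mxd1* and *Mxd4*, and not for the others. With IOX5, *Mxi1* (11.3 ± 2.53) stood above *Mga* (10.6 ± 0.928) and *Mxd4* (9.17 ± 1.26) above *Mxd1* (7.47 ± 0.999), but in both cases the ranges of the neighbors overlapped. The ratio of *Myc* to *Max* per kilobase was 1.29 to 2.43 in the DMSO samples and 1.73 to 2.48 in the IOX5 samples.

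**Figure D3:**
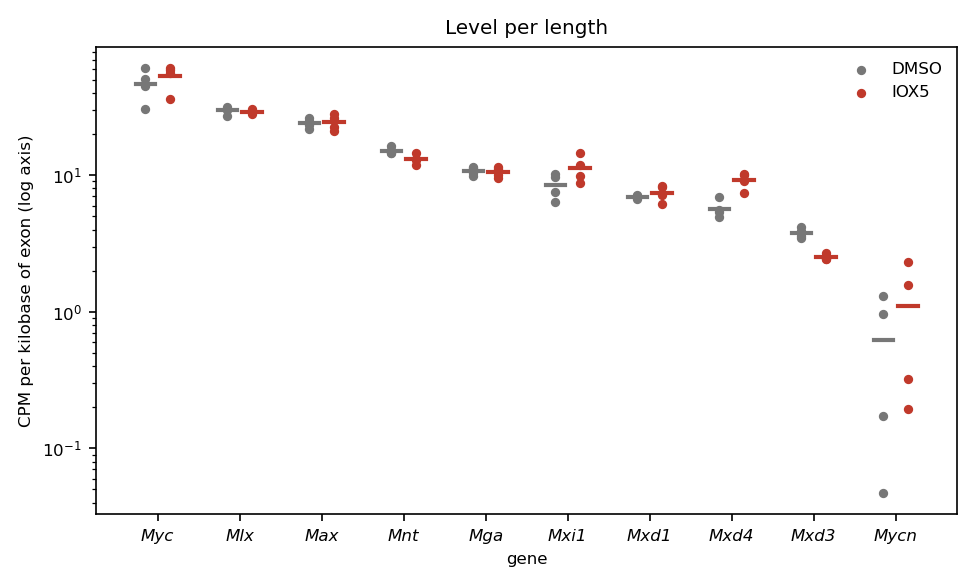
CPM per kilobase of exon (log axis) for each network gene, ordered by the DMSO mean; points are samples and bars the mean of 4. *Myc* is the highest and *Mycn* the lowest in both groups.

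The make-up of the MXD family, taken as each gene's share of the CPM per kilobase of *Mxi1*, *Mxd1*, *Mxd3* and *Mxd4* together, is given by sample. The share of *Mxd4* was 22.8% ± 1.76 with DMSO and 30.1% ± 1.87 with IOX5 (SD, n = 4 each). The share of *Mxd3* was 15.3% ± 1.68 with DMSO and 8.44% ± 1.3 with IOX5. For both genes the groups did not overlap. *Mxi1* had the largest share in 7 of 8 samples, with 28.9 to 38.5% with DMSO and 32.9 to 41.1% with IOX5, and in DMSO sample 4 *Mxd1* was larger. The summed MXD level was 24.9 ± 2.39 CPM per kilobase with DMSO and 30.5 ± 3.87 with IOX5 (SD, n = 4 each), and the groups overlapped. Set against *Myc* in the same sample, it was 0.361 to 0.872 of the *Myc* level with DMSO and 0.428 to 0.972 with IOX5, with the samples numbered 2 the highest in each group. These shares and ratios are descriptions of chosen genes and were not tested.

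**Figure D4:**
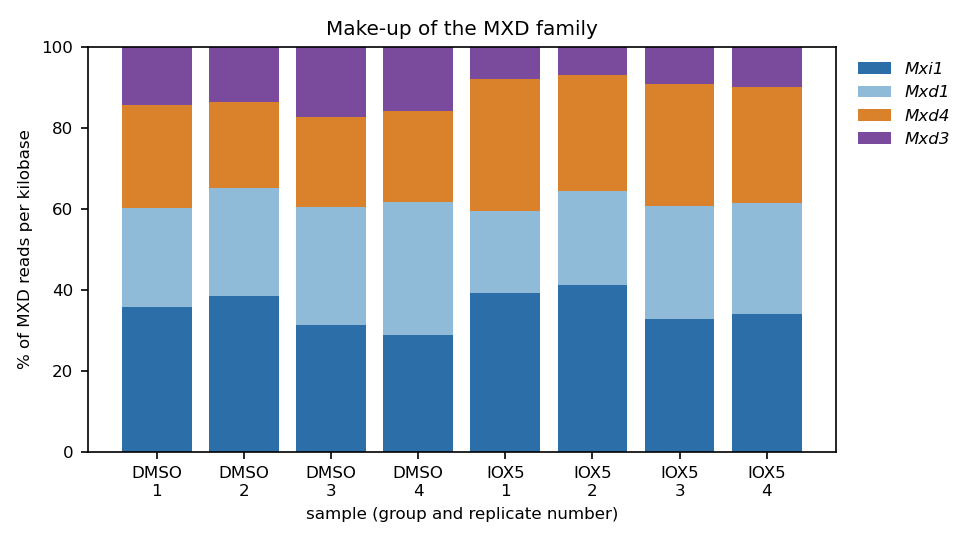
Share of each MXD gene in the summed CPM per kilobase of the family, by sample. The *Mxd4* band is wider and the *Mxd3* band narrower in all 4 IOX5 samples than in any DMSO sample.

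Cofactors through which the network acts were examined with lists of known members. The SIN3 and HDAC corepressor, which MXD and MNT proteins recruit, had 17 of 17 listed genes tested and a median log2FC of 0.002, against 0.017 over all genes tested. Of these, 1 was called higher and 0 lower by edgeR (1 lower at an unadjusted p under 0.05, and 0 lower by DESeq2, limma's voom or blocked edgeR). Over all genes tested, unblocked edgeR called 0.774% higher and 1.25% lower. The shares lower were 5.75% by DESeq2, 4.92% by voom and 9.43% by blocked edgeR. The gene called was *Sin3b*, one of the paired SIN3 scaffold genes. It had 95.5, 96.4, 103 and 100.3 CPM with DMSO and 123, 127, 121 and 133 CPM with IOX5. Every IOX5 sample was above every DMSO sample, as for 5.98% of all genes tested, and *Sin3b* rose with 0.35 log2FC (SE 0.0563, adjusted p = 0.0254 by edgeR). When DMSO replicate 3 or 4 or IOX5 replicate 3 was left out, edgeR called 0 of all genes, so the calls of *Sin3b* and of the 4 genes called lower among MYC turnover and MYC-activated genes were then also lost. *Sin3a*, its paralog, had a log2FC of -0.091 (edgeR adjusted p = 0.436).

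Most of the 19 genes listed as MYC coactivators encode acetyltransferases, parts of their complexes or elongation factors. Of the 19, 2 had a log2FC above 0 and 17 below it, with a median of -0.11. The list also holds *Zbtb17* (0.091 log2FC), whose product pairs with MYC in repression. Unblocked edgeR called 0 (0 higher and 5 lower at an unadjusted p under 0.05), DESeq2 and limma's voom each called *Crebbp* lower, and blocked edgeR called *Crebbp* and *Brd8* lower. Over all genes tested, 5.75% were lower by DESeq2, 4.92% by voom and 9.43% by blocked edgeR. *Crebbp*, which encodes the acetyltransferase CBP, had 53.2, 53.6, 50.0 and 56.2 CPM with DMSO and 35.9, 46.2, 39.7 and 35.2 CPM with IOX5. Every IOX5 sample was lower, as for 8.3% of all genes tested, and edgeR's adjusted p was 0.0517 unblocked and 0.00292 blocked.

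Genes that set the stability of MYC protein had a median of -0.16 log2FC, with 6 above 0 and 12 below it. The list mixes genes that protect MYC with genes that remove it, so this median gives no direction for MYC stability. Of the 18 tested, 0 were called higher and 1 lower by edgeR (2 higher and 9 lower at an unadjusted p under 0.05), 1 higher and 6 lower by DESeq2 and by limma's voom, and 2 higher (*Pim2* and *Btrc*) and 8 lower by blocked edgeR. Over all genes the shares higher and lower were 0.774% and 1.25% by unblocked edgeR, 4.67% and 5.75% by DESeq2, 3.43% and 4.92% by voom, and 11.2% and 9.43% by blocked edgeR. *Usp36*, which encodes a nucleolar deubiquitinase that protects MYC, fell from 69.2 ± 4.63 to 54.4 ± 2.64 CPM (SD, n = 4 each; -0.35 log2FC, adjusted p = 0.0427 by edgeR). *Aurka*, a mitotic kinase that also shields MYC proteins from degradation, had -0.43 log2FC and an edgeR adjusted p of 0.0545 unblocked and 9.34e-04 blocked. *Pim2*, a kinase that stabilizes MYC, had 0.51 log2FC and edgeR adjusted p-values of 0.0778 and 0.0020. The log2FC of *Fbxw7*, the ubiquitin ligase that removes MYC, was 0.061. Of other genes tied to its removal, *Skp2* (-0.33), *Gsk3b* (-0.21) and *Huwe1* (-0.20) stood below 0 and *Stub1* (0.027) above it.

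MGA partners in the PRC1.6 complex had a median log2FC of -0.078 over 14 genes. Unblocked edgeR called 0 of them (0 higher and 1 lower at an unadjusted p under 0.05), DESeq2 and limma's voom called 0, and blocked edgeR called 1 lower, where 9.43% of all genes were lower. That gene was *Cbx3*, which encodes a heterochromatin protein (-0.24 log2FC, edgeR adjusted p 0.298 unblocked and 0.0376 blocked). *Tfdp1*, which encodes the dimer partner of E2F factors, had 310.1 ± 16.2 and 275 ± 21.5 CPM (SD, n = 4 each; edgeR adjusted p 0.213 and 0.0621).

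Most genes that MYC is known to activate stood below 0 on the log2FC scale. Of 39 listed genes, 38 were tested, 3 with a log2FC above 0 and 35 below it, and the median was -0.25. By edgeR 0 were called higher and 3 lower, where 1.25% of all genes were called lower. Blocked edgeR called 0 higher and 21 lower, where 9.43% of all genes were lower. DESeq2 called 0 higher and 13 lower, where 5.75% of all genes were lower. Limma's voom called 0 higher and 16 lower, where 4.92% of all genes were lower. The summed level of the list was 15016 to 16882 CPM with DMSO and 11574 to 15765 CPM with IOX5, with IOX5 sample 4 inside the DMSO range.

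The 3 genes called serve nucleotide supply and the cell cycle. *Shmt2*, the mitochondrial serine hydroxymethyltransferase, had 339, 357, 352 and 341 CPM with DMSO and 241, 222, 245 and 287 CPM with IOX5, and fell, with -0.48 log2FC (SE 0.079, adjusted p = 0.026 by edgeR). *Cdc25a*, a phosphatase that activates cyclin-dependent kinases, had 106, 105, 101 and 109 CPM with DMSO and 79.9, 73.6, 85.0 and 84.7 CPM with IOX5 (-0.38 log2FC, adjusted p = 0.026 by edgeR). *Cad*, which opens pyrimidine synthesis and is a textbook E-box target of MYC, had 301, 335, 261 and 262 CPM with DMSO and 176, 197, 225 and 206 CPM with IOX5 (-0.53 log2FC, adjusted p = 0.0443 by edgeR). For each of these genes every IOX5 sample lay below every DMSO sample, as for 8.3% of all genes tested. The nucleolar genes *Ncl* (-0.37), *Npm1* (-0.29) and *Nop58* (-0.31) were called lower by blocked and not by unblocked edgeR, as was the translation factor gene *Eif4e* (-0.28). *Fbl* (0.002), *Nme2* (0.005), *Tfrc* (0.003) and *Ccnd2* (-0.036) had values near 0 on the same log2FC scale and passed neither fit.

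Genes known to be repressed by MYC stood mostly above 0. Of 14 tested, 12 had a log2FC above 0 and 2 below it, with a median of 0.41. Unblocked edgeR called 0 of them (5 higher and 2 lower at an unadjusted p under 0.05). DESeq2 called *Cdkn1a*, *Hbp1* and *Ccng2* higher and *Gadd45b* lower, limma's voom added *Btg2* to the higher ones, and blocked edgeR called 8 higher and *Gadd45b* and *Gadd45a* lower. The shares of all genes higher and lower were 4.67% and 5.75% by DESeq2, 3.43% and 4.92% by voom, and 11.2% and 9.43% by blocked edgeR. *Cdkn1a*, which encodes the cell cycle inhibitor p21, had 0.67 log2FC and an edgeR adjusted p of 0.059 unblocked and 8.07e-04 blocked. *Ccng2*, which encodes a cyclin of nondividing cells, had 0.42 log2FC and edgeR adjusted p-values of 0.059 and 0.00167. *Gadd45b*, a stress gene, was lower in every IOX5 sample, as were 8.3% of all genes tested (-0.65 log2FC, edgeR adjusted p 0.0553 and 6.29e-04). *Ndrg1*, with a log2FC of 0.41, is also a HIF target, and *Cebpa* (0.50) is a myeloid factor that stands in the leukemic marker list as well.

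Targets of the MLX and MondoA pair were all above 0 on the log2FC scale in the 7 genes tested of 8 listed, with a median of 0.18. Unblocked edgeR called 0 (3 higher and 0 lower at an unadjusted p under 0.05), as did DESeq2 and limma's voom, and blocked edgeR called *Txnip* and *Klf10* higher, where 11.2% of all genes were higher. *Txnip*, which encodes an inhibitor of glucose uptake, had 167, 105, 141 and 155 CPM with DMSO and 178, 202, 181 and 164 CPM with IOX5, and DMSO sample 2 stood lowest. For *Txnip* edgeR's adjusted p was 0.192 unblocked and 0.0347 blocked. *Klf10*, a zinc finger gene, had 28.6 ± 1.93 CPM with DMSO and 35.2 ± 5.18 CPM with IOX5 (SD, n = 4 each; edgeR adjusted p 0.187 and 0.0454). *Mlxip*, which encodes MondoA itself, had -0.14 log2FC (edgeR adjusted p = 0.377).

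**Figure D5:**
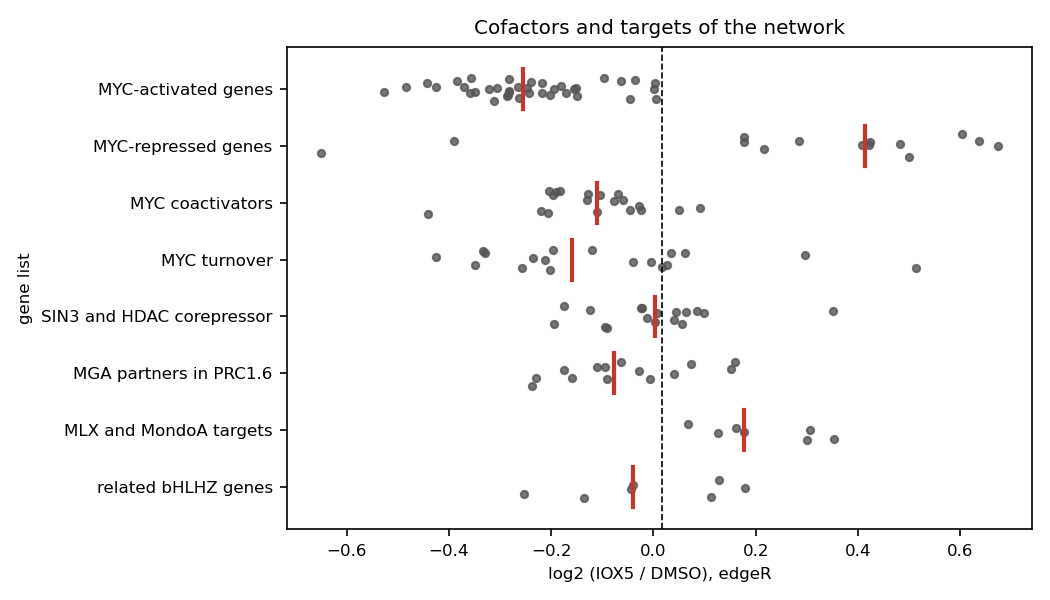
EdgeR log2FC of every tested gene in 8 lists of cofactors and targets; gray points are genes, red bars list medians, and the dashed line the median of all genes tested. The MYC-activated list lies mostly to the left of the dashed line and the MYC-repressed list mostly to its right.

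Markers of other blood cells were measured beside the network genes. The summed level of 10 mast cell and basophil markers was 187 to 725 CPM with DMSO and 329.6 to 1136 CPM with IOX5, and of the 8 tested 0 were called by unblocked edgeR (also 0 at an unadjusted p under 0.05, and 0 by DESeq2 or limma's voom) and 8 were higher by blocked edgeR. In these marker lists unblocked edgeR called 0 genes, and blocked edgeR called 11.2% of all genes higher and 9.43% lower. At an unadjusted p under 0.05, unblocked edgeR had 1 granulocyte, 2 macrophage and 2 erythroid and megakaryocyte markers higher, 1 macrophage marker lower, and 0 of the other lists. DESeq2 and limma's voom called *Ly6g*, *Ppbp*, *Adgre1* and *Mrc1* higher, and voom also *Fcgr1* lower. Over all genes tested, 4.67% were higher by DESeq2 and 3.43% by voom, and 4.92% were lower by voom. *Cpa3*, which encodes a mast cell protease, had 21.2, 17.97, 95.1 and 75.0 CPM with DMSO and 31.7, 50.6, 229 and 148 CPM with IOX5. *Mcpt4* of this list had 0 reads in all samples. This list was high in numbers 3 and 4 of both groups, as *Mycn* was. The summed level of 10 granulocyte markers was 596 to 1405 CPM with DMSO and 762 to 2159.7 CPM with IOX5, with 6 of 10 called higher by blocked edgeR and sample 2 the highest of each group. For 10 macrophage markers it was 168 to 232 CPM with DMSO and 242 to 519 CPM with IOX5, with *Adgre1* and *Mrc1* called higher and *Fcgr1* lower of 9 tested by blocked edgeR. For 10 erythroid and megakaryocyte markers it was 24.5 to 85.6 CPM with DMSO and 52.8 to 152 CPM with IOX5, with 5 of 9 tested called higher by blocked edgeR. For 10 lymphoid and 8 stromal and endothelial markers it was 9.04 to 21.2 CPM with DMSO and 11.1 to 30.9 CPM with IOX5, and 85.4 to 169 CPM with DMSO and 134 to 223 CPM with IOX5. Blocked edgeR called *Nkg7* higher of the 2 lymphoid and *Pecam1* of the 3 stromal and endothelial markers tested. *Pecam1* made up most of the stromal and endothelial sum, with 163 of 169 CPM in DMSO sample 1. The other markers tested, *Col1a1* (-0.29) and *Pdgfrb* (-0.28), had a log2FC below 0, and the median of the list was -0.28. *Mrc1*, which encodes the mannose receptor of macrophages, had 18.6, 7.47, 5.04 and 6.64 CPM with DMSO and 36.1, 63.7, 23.2 and 16.0 CPM with IOX5, and its groups overlapped. The part of these cells or programs in the differences of the network genes was not tested.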

How the data were processed

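Directional libraries of poly(A) RNA from 8 samples were read from a single end. Per the labels and the methods, the authors trimmed reads with cutadapt 1.18, mapped them to GRCm38 with HISAT2 2.2.1 and counted them with HTSeq 2.0.1, and the deposited values are raw read counts per Ensembl gene and sample. The annotation release and strand setting of the counting are not given in the sources used here. *Xist* had 105071 reads and its antisense partner *Tsix* 21. Summary lines for unassigned reads held 20.6% to 22.6% of reads and were left out. Names and coordinates came from GENCODE M21 (GRCm38), which matched 54809 of 54838 identifiers.

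Counts were filtered (filterByExpr, 12405 genes), TMM-scaled and tested with edgeR 4.0.16 (quasi-likelihood test, IOX5 against DMSO, no block) in R 4.3.3, at an adjusted p under 0.05. Log2 CPM used a prior count of 2. DESeq2 1.42.0 and limma 3.58.1 (voom with sample weights) were alternatives, with other scalings and filters, thinned counts, samples left out and the replicate block. The labels do not say what the numbers mark. The correlation of deviations from group means over genes was 0.636 to 0.758 between samples with the same number, above the 0.1 set for pairing in all 4 pairs, and -0.615 to 0.685 between different numbers. The value of 0.685, between DMSO sample 4 and IOX5 sample 3, exceeded the 0.636 between the samples numbered 4. The steps were tested on simulated data.

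The network genes, the lists of known cofactors, targets and markers, and the tests were chosen with earlier results of these data known, and the lists were written from general knowledge. Genes were named by rule: every network gene; per list, the genes called (up to 3 in each direction) or otherwise the 2 with the smallest adjusted p; the 3 genes most and least correlated with *Myc*, *Mxi1* and *Mxd4*; and genes with an exon over a network gene's exon on the opposite strand. *Sin3a*, *Brd8*, *Zbtb17*, *Tdrkh*, *Kit*, *Mpo*, *Elane*, *Hbp1*, *Btg2*, *Gadd45a*, *Fcgr1*, *Pdgfrb*, *Aurka*, *Btrc*, *Pim2*, *Fbxw7*, *Skp2*, *Huwe1*, *Gsk3b*, *Stub1*, *Cdkn1a*, *Ndrg1*, *Ncl*, *Npm1*, *Nop58*, *Eif4e*, *Fbl*, *Nme2*, *Tfrc*, *Ccnd2* and the markers and germline genes named as having 0 reads fall outside the rule and were chosen after their values were seen. Some genes that the rule would name are not reported here.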

Additional observations from a re-analysis of the deposited data

How the results depend on the processing

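Counts of all genes called higher and lower were 96 and 155 as reported, 1394 and 1170 with the replicate block, 1438 and 1216 with a block that joins numbers 3 and 4 (chosen after seeing the data), 489 and 602 by DESeq2, and 426 and 610 by limma's voom. Without a filter on low counts 73 were lower. Network genes called were 3 higher and 2 lower with either block, and 1 lower (*Mxd3*) by DESeq2, by voom and with counts thinned to the smallest library. Leaving out samples moved the counts over all genes to 0 to 130 higher and 0 to 333 lower, with 0 called by edgeR when DMSO replicate 3 or 4, or IOX5 replicate 3, was left out (886, 969 and 939 higher and 1083, 877 and 1172 lower at an unadjusted p under 0.05). It moved those of network genes to 0 to 1 higher, and 0 lower in every case. With the replicate block and number 1, 2, 3 or 4 left out, 994, 1119, 642 and 1355 genes were higher and 650, 1016, 403 and 1058 lower, and between 2 and 4 network genes were higher and 1 to 2 lower. The log2 fold changes of *Max*, *Mlx* and *Mga* lay too close to 0 to keep a sign. That of *Max* ran from -0.054 to 0.086 with single samples left out and from -0.033 to 0.070 with the replicate block and a number left out. That of *Mlx* ran from -0.080 to -0.010 with single samples left out and from -0.087 to 0.011 with the replicate block and a number left out. That of *Mga* ran from -0.063 to 0.028 with single samples left out and from -0.069 to 0.055 with the replicate block and a number left out. RLE and upper-quartile scaling changed no call among the network genes, and the causes of the differing counts were not tested. With 2 to 97 reads per sample, *Mycn* had the lowest counts of the network genes, so counting error weighs on its values.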

Other observations

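Genes that followed the network genes over the 8 samples were ranked by Pearson's r of log2 CPM among 8924 genes with a mean of at least 10 CPM. These samples share their replicate numbers and, within a group, the treatment, so the values are descriptions over 8 samples. Closest to *Myc* were *Jade2* (0.977), *Cnpy2* (0.976) and *0610030E20Rik* (0.96), and most opposed were *Aaed1* (-0.984), *Ddx23* (-0.964) and *Med17* (-0.956). Closest to *Mxi1* were *Pxmp4* (0.992), *Evi5l* (0.983) and *Mkrn1* (0.977), and most opposed were *Pphln1* (-0.976), *Cdk1* (-0.973) and *Taf15* (-0.971), of which *Cdk1* encodes the kinase that drives mitosis. Closest to *Mxd4* were *Higd2a* (0.983), *Aldh2* (0.978) and *Polr3gl* (0.975), and most opposed were *Kif20a* (-0.991), *Elavl1* (-0.989) and *Rbbp4* (-0.987). *Kif20a* encodes a kinesin of cell division and *Rbbp4* a histone-binding subunit of the SIN3 and Polycomb complexes. The genes of this ranking were picked for following a network gene over the same samples. Calls among them therefore follow in part from the choice and are no separate result. *Kif20a* fell with IOX5 (log2 fold change -0.40, adjusted p = 0.0409 by edgeR), where 1.25% of all genes tested were called lower. The other genes were not called by edgeR without the replicate block. With it, edgeR called *Evi5l*, *Mkrn1*, *Aldh2* and *Polr3gl* higher and *Pphln1*, *Cdk1*, *Taf15* and *Elavl1* lower. Over all genes tested, 11.2% were called higher and 9.43% lower in that fit.

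Of 12 listed germline genes that PRC1.6 silences, *Mael*, *Slc25a31*, *Stk31* and *Sycp1* had 0 reads in all samples and 3 were tested. *Tdrkh*, which encodes a piRNA pathway protein, had the most reads, with 10.96 ± 2.55 CPM with DMSO and 12.4 ± 2.85 CPM with IOX5 (SD, n = 4 each; adjusted p 0.71 by edgeR). *Stag3*, a meiotic cohesin gene, had 2.25 ± 0.484 CPM with DMSO and 1.31 ± 0.0601 CPM with IOX5 (SD, n = 4 each; adjusted p by edgeR 0.104 without and 0.0345 with the replicate block). *Zcwpw1*, a meiotic histone reader gene, had 1.45 ± 0.395 and 2.43 ± 0.696 CPM (adjusted p 0.219 and 0.0329). Among 7 tested of 8 related bHLHZ genes, 0 were called by edgeR, by DESeq2, by limma's voom or with the block (0 also at an unadjusted p under 0.05 by edgeR), and *Usf1*, which encodes another E-box factor, had a log2 fold change of 0.13.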
